A study of Mus musculus with 40 samples.

Results

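The age difference described here is that between adult and adolescent female mice that drank water and received morphine, read in the medial prefrontal cortex by sequencing of polyadenylated RNA. Its members were chosen by the sample labels alone, as the 5 adult and the 5 adolescent libraries of that treatment, which are 10 of the 40 libraries of the series. Adults began the experiment on postnatal day 55 and adolescents on postnatal day 25. Both groups were wild-type C57BL/6J females on plain water, injected under the skin with morphine at 15 mg/kg for 5 days, so both carried the same drug and drank the same water. An age difference was also taken on water and saline and on oral antibiotics and morphine, from 5 adult and 5 adolescent libraries each. Neither of these uses a library of the first. The labels give the tissue as brain and the cell type as all, so each library is a mixture of neurons, glia and vessel cells, in which fewer cells of a type and less RNA per cell cannot be told apart. Nothing in the labels says that libraries came from separate mice, and each p-value therefore speaks of the spread among these libraries alone, which may be technical.

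The medial prefrontal cortex matures late. Between adolescence and adulthood its neurons finish axon growth, lose and refine synapses, and become wrapped by myelin, which oligodendrocytes make from a small set of abundant proteins. Morphine acts mainly through the mu opioid receptor, which lowers the excitability of the neurons that carry it and reduces transmitter release from their terminals.

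Totals lay between 9262348 and 10316167 counts in the 5 adult libraries and between 9504498 and 12098769 counts in the 5 adolescent ones. Levels are given as CPM, counts scaled to the library's TMM-adjusted total. On the totals before that adjustment, 3 counts stood for 0.248 to 0.324 CPM in these 10 libraries. All 10 excitatory cortical neuron markers were read in both groups, at a summed 7854 to 9219 CPM in adults and 8138 to 8595 CPM in adolescents, while 2 of 10 choroid plexus markers reached 1 CPM in either group. Of the 14 striatal markers, Isl1, a transcription factor of developing striatal neurons, was at 0 in all adult libraries, and the list summed to 297 to 351 CPM in adults and 301 to 329 CPM in adolescents. Summed markers of astrocytes, microglia and endothelium overlapped between the groups, and adult library 4 held the highest astrocyte sum, 11007 CPM against 8210 to 9702 CPM in adolescents, and the highest microglial sum. That library also held the highest sums of excitatory neuron, interneuron, oligodendrocyte precursor and myelin markers, so its high sums were not confined to glia. Adult library 3 stood apart from the other 9: its TMM scaling factor was 0.923, against 0.974 to 1.013 in the others, and it lay at 20.9 on the second principal component, where the others lay between -8.8 and 3.8. By limma-voom's weights per sample, adult libraries 3 and 4 both stood apart, at 0.477 and 0.528, against 1.05 to 1.47 in the rest of the 10.

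Few genes were called between adult and adolescent cortex, and most called folds were small. Of 17880 genes tested with edgeR's quasi-likelihood test, 166 were called at an adjusted p under 0.05, which is 0.928% of those tested, 71 of them higher in adults (0.397%) and 95 lower (0.531%). An unadjusted p under 0.05 in that test was reached by 2549 genes, or 14.3%, so the count of calls is not a count of genes that differ. The median called fold was 1.29 among genes higher in adults and 0.799 among genes lower in adults, and 6 called genes differed by at least 2-fold. The smallest p was that of a fall in adults of Marcksl1, an actin and membrane regulator of growing neurites, and the lower side further held Tubb2a, Cd24a and subunits of the vacuolar proton pump and the respiratory chain. The higher side held the cytokine Il33, the calcium release channel Itpr1, and cytoskeletal linkers such as Sptb, Plec and Espn. Libraries of the 2 ages did not overlap at 122 of the 166 called genes, and at 646 of all genes tested (3.61%). Adults lay above adolescents at 54 of the 71 genes called higher (1.71% of all genes tested did so) and below them at 68 of the 95 called lower (1.91%).

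The count of calls moved with single libraries. It was 82 without adult library 1, 328 without adult library 4, 63 without adolescent library 3 and 104 without adolescent library 4. Without adult library 3 it was 111, of which 88 were among the 166. In all, 48 of the 166 genes were called without each of the 10 libraries in turn, 19 of them higher in adults and 29 lower. No called gene changed direction in any of these fits. Genes named below held their call without any single library unless the text says otherwise.

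**Figure D1:**
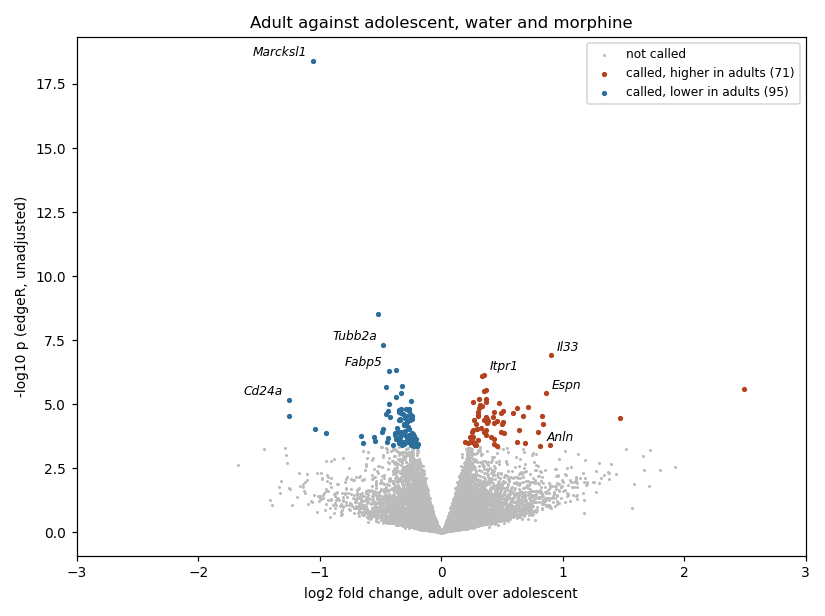
Fold change (log2, adult over adolescent) against the unadjusted p of edgeR on a -log10 scale for 17880 genes, with called genes coloured by direction and 8 genes that the text describes labelled. Marcksl1 stands alone at the top, and most called genes lie within 0.5 of 0 on the log2 scale.

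Genes of growing neurites were among those lower in adults. Of 31 tested genes of the growing neurite and the immature neuron, 6 fell in adults and none rose, and 26 of the 31 had negative log2 fold changes. Over all 17880 genes tested, 0.531% were called lower and 0.397% higher. Log2 fold changes were negative at 8384 of them and positive at 9496, which is the background for the lists below as well. This list and those below were written with earlier results of these data known, so their counts are descriptions only. The 6 were Marcksl1, Tubb2a, Cd24a, Basp1, Tmsb10, a thymosin that binds actin monomers, and Mllt11. Tmsb10 was called without adult library 4 or 5 and lost without each of the other 8 libraries, with an edgeR adjusted p of up to 0.133. The median log2 fold change of the list was -0.19, against 0.01 over all genes tested, and lay between -0.21 and -0.18 without each library in turn. Summed over the list, adult libraries 1 to 5 gave 6919, 6429, 7980, 6037 and 6707 CPM, against 7608, 7654, 7733, 7172 and 7251 CPM in adolescent libraries 1 to 5. Adult library 3 was the highest of the 10, and the other 4 adult libraries lay below all adolescent ones.

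Marcksl1 encodes a relative of MARCKS, a protein kinase C substrate that ties actin to the plasma membrane in growth cones. Its level was 64.2, 67.3, 75.8, 73.1 and 64.5 CPM in adults, against 142, 146, 138, 143 and 147 CPM in adolescents. Every adult library lay far below every adolescent library, and the gap between the groups was many times the spread within them. The log2 fold change was -1.05 ± 0.08 (SE), a ratio of 0.48, with an edgeR adjusted p of 7.02e-15. Without single libraries the adjusted p was at most 3.16e-13. Marcksl1 also fell in adults on water and saline, by 0.67 on the log2 scale (edgeR adjusted p = 7.55e-08), and on antibiotics and morphine, by 0.93 (edgeR adjusted p = 7.38e-13).

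The promoters of Marcksl1 and of Tubb2a, the clearest growth genes by p, are shown with that of Il33, the clearest gene of the higher side, because members that moved together can be compared for core promoter letters. Each line gives the 250 bases before a transcription start in RefSeq's table for GRCm38.p6, 5′ to 3′ on the gene's strand, with capitals for the 4 motifs searched on both strands. These were the GC box with the letters GGGCGG, the TATA box with the letters TATAAA, the CCAAT box named after its own letters, and the cyclic AMP response element, or CRE, with the letters TGACGTCA. Il33 has 2 listed starts. The Marcksl1 window lies on the plus strand at chr4:129513331-129513580, that of Tubb2a on the minus strand at chr13:34078009-34078258, and those of Il33 on the plus strand at chr19:29924863-29925112 and chr19:29945540-29945789.
Marcksl1: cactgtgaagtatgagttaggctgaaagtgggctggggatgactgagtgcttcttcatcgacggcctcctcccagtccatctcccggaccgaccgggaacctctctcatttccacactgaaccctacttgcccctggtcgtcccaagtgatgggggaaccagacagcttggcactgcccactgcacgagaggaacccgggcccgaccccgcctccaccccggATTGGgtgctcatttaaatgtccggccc
Tubb2a: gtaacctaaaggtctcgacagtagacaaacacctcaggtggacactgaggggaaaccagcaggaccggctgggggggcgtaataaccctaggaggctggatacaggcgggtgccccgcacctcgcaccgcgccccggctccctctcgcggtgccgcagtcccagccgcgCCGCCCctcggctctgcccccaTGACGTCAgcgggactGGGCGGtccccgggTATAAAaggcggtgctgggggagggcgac
Il33 upstream start: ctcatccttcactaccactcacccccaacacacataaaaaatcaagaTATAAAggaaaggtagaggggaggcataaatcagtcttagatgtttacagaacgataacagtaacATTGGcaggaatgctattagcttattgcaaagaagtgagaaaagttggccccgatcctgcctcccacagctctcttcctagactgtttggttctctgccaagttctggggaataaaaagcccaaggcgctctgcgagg
Il33 downstream start: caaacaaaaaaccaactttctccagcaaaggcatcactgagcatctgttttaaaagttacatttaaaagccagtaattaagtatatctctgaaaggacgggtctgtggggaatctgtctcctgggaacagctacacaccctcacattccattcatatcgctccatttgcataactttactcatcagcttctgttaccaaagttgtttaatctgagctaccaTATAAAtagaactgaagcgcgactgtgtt

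These windows share no single set of core letters. Marcksl1 held a CCAAT box on the opposite strand and none of the other motifs. Tubb2a held 2 GC boxes, 1 CRE and a TATA box beginning 29 bases before the start, the same place as the TATA box of the downstream Il33 start. The upstream Il33 start had a TATA box 203 bases before the start and a CCAAT box, and neither Il33 window had a GC box. RefSeq windows were matched for 75 of the 95 genes lower in adults, 49 of the 71 higher in adults and 12025 of all genes tested. A GC box lay in 60% of the promoters of genes lower in adults and in 71.4% of those higher in adults, against 61.1% over all genes tested. A TATA box lay in 9.33% of the lower and 8.16% of the higher set, against 8.13% of all, a CCAAT box in 29.3% and 30.6%, against 39.7%, and a CRE in 5.33% and 6.12%, against 2.92%. A match describes letters in a window and is not a bound site.

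Tubb2a encodes a beta-tubulin of growing microtubules. It was read at 310, 323, 344, 293 and 324 CPM in adults, against 445, 463, 479, 438 and 393 CPM in adolescents, again with no overlap. Its log2 fold change was -0.48 ± 0.07 (SE; edgeR adjusted p = 2.81e-04). Tubb2b, a close copy whose reads may be split with those of Tubb2a, had a log2 fold change of -0.28 and was not called (edgeR adjusted p = 0.22). On water and saline the log2 fold change of Tubb2a was -0.03, and the difference between the 2 age differences, -0.45, did not pass edgeR's adjusted threshold (adjusted p = 0.201).

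Cd24a, a surface glycoprotein of immature neurons, had the steepest fall of the list at a low level. It gave 3.21, 2.82, 4.27, 2.11 and 2.73 CPM in adults, against 8.43, 7.23, 9.56, 6.88 and 3.87 CPM in adolescents. Adolescent library 5 lay within the adult range, so the groups overlapped at that library only. The log2 fold change was -1.26 ± 0.25 (SE; edgeR adjusted p = 0.00633).

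Basp1, a membrane protein of the growth cone, was the most abundant of the 6, at 739 ± 36.9 CPM in adults and 890 ± 34.9 CPM in adolescents (SD, n = 5 each). Its log2 fold change was -0.27 ± 0.06 (SE; edgeR adjusted p = 0.0088), and with an offset for transcript length and GC content the edgeR adjusted p was 0.0735. A pair of classical markers of the immature neuron gave other values: Dcx, doublecortin, averaged 38.6 ± 4.87 CPM in adults and 35.3 ± 3.21 CPM in adolescents, and the transcription factor Sox11 15.5 ± 3.23 CPM in adults and 14.9 ± 1.68 CPM in adolescents (SD, n = 5 each). Neither was called (edgeR adjusted p = 0.584 for Dcx and 0.917 for Sox11), and the sign of Sox11 turned in some other fits. Gap43, the growth-associated protein, had a log2 fold change of -0.31 and was not called either (edgeR adjusted p = 0.162).

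**Figure D2:**
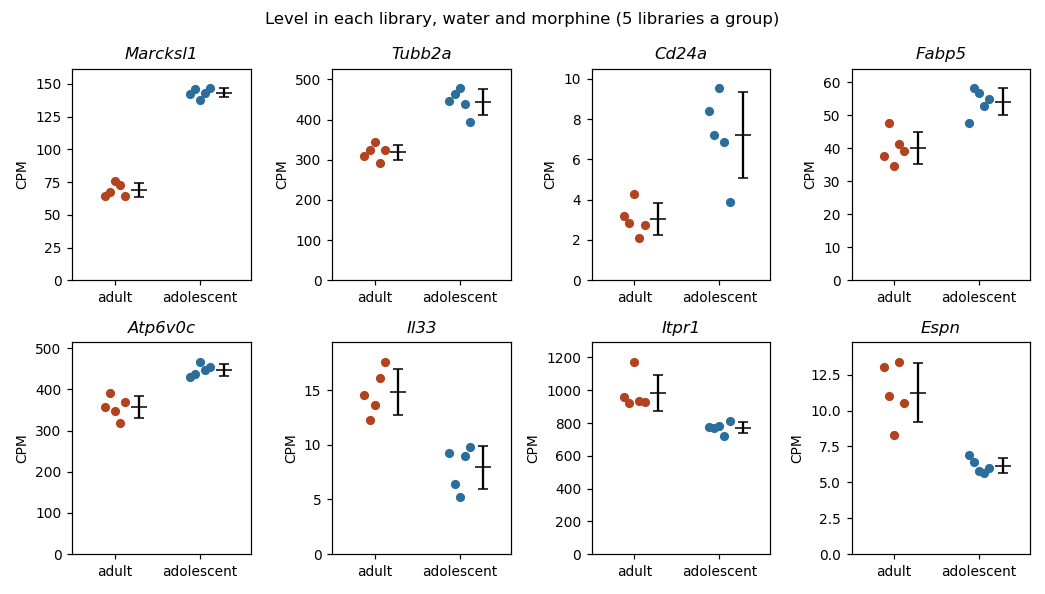
Level of 8 genes in each library of adults (left) and adolescents (right) on water and morphine, in CPM on axes that start at 0, with the mean and SD of 5 libraries beside the points. The groups overlap for Cd24a at 1 adolescent library and are separate for the other 7 genes.

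Genes of the mature axon leaned to the other side. Of 19 tested genes of neurofilaments, the node and the mature axon, 18 had positive log2 fold changes, against 9496 of all 17880 genes. The median of the list was 0.17. The neurofilament genes Nefl, Nefm and Nefh had log2 fold changes of 0.09, 0.11 and 0.20 and were not called. Summed over the 19 genes, adult libraries 1 to 5 gave 5687, 5452, 6357, 5126 and 5695 CPM, against 5284, 5201, 4926, 4818 and 5411 CPM in adolescent libraries 1 to 5. The groups overlapped at adult library 4, and without adult library 3 the list's median was 0.11.

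At the synapse, 3 of 24 genes of the synaptic vesicle and its release fell in adults and none rose, while the median of the list was -0.01. Over all genes tested, 0.531% were called lower. Among the 3 synaptic genes that fell were Syp and Stx1a. Syp, the vesicle protein synaptophysin, averaged 1285 ± 92 CPM in adults and 1505 ± 53.3 CPM in adolescents (SD, n = 5 each; edgeR adjusted p = 0.0287). Without adult library 1 or adolescent library 3 it was no longer called, with an edgeR adjusted p of up to 0.0725. Syp shares 875 exon bases with Gm14703 on the opposite strand, which was itself counted at 681 CPM, and without a stated strand setting reads of the 2 cannot be told apart. Stx1a, the syntaxin of the release machinery, had a log2 fold change of -0.23 (edgeR adjusted p = 0.0343), and its call was lost without adult library 1, 3 or 5 or adolescent library 1, 3 or 4, with an edgeR adjusted p of up to 0.134. The calcium sensor Syt1 and the vesicle protein Vamp2 had log2 fold changes of -0.01 and -0.03 and were not called. On the higher side Rims3, a protein of the presynaptic active zone outside the list, rose in adults by a log2 fold change of 0.37 ± 0.07 (SE; edgeR adjusted p = 0.00683). It missed the threshold without adolescent library 3 (edgeR adjusted p = 0.0539).

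The vacuolar proton pump, which acidifies synaptic vesicles and lysosomes, held 3 called genes among 16 tested. All 16 tested subunits and accessory genes had negative log2 fold changes, against 8384 of all 17880 genes, and their median was -0.12. The 3 that fell in adults were Atp6v0c, Atp6v0b and Atp6v1f, where 0.531% of all genes were called lower. Atp6v0c forms the ring that turns protons through the membrane. It gave 356, 390, 347, 318 and 370 CPM in adults, against 429, 437, 467, 448 and 453 CPM in adolescents. Every adult library lay below every adolescent one, at a log2 fold change of -0.33 ± 0.06 (SE; edgeR adjusted p = 0.00376). Atp6v0b, a second proteolipid of that sector, lost its call without adult library 1 or 3 or adolescent library 3 or 4 (edgeR adjusted p up to 0.1). It shares 243 exon bases on the opposite strand with Gm12841, itself called lower in adults and lost without 4 of the 10 libraries in turn. Atp6v1f, a subunit of the catalytic head, lost it without adult library 1, 3 or 5 or adolescent library 2, 3 or 4 (edgeR adjusted p up to 0.173). The summed list was 4628, 4644, 4852, 4047 and 4682 CPM in adult libraries 1 to 5, against 4943, 5040, 5142, 4816 and 4997 CPM in adolescent libraries 1 to 5. Adult library 3 was the one adult library above an adolescent one. The median of these 16 genes was 0.06 on water and saline.

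Nuclear genes of the respiratory chain showed the same lean. Of 56 tested, 54 had negative log2 fold changes, against 8384 of all 17880 genes, and their median was -0.17. In adults 3 fell, where 0.531% of all genes were called lower. They were the cytochrome oxidase subunits Cox5b and Cox4i1 and the complex I subunit Ndufa8. A further complex I subunit outside the list, Ndufb6, gave 23.4, 28.2, 22.2, 29.3 and 26.6 CPM in adults, against 35.7, 34.1, 35.3, 39.1 and 33.6 CPM in adolescents. The groups did not overlap, and the log2 fold change was -0.45 ± 0.09 (SE; edgeR adjusted p = 0.00384). Ndufb6 shares 257 exon bases with Smim27 on the opposite strand. Cox5b averaged 92.6 ± 15.1 CPM in adults and 127 ± 8.58 CPM in adolescents (SD, n = 5 each; edgeR adjusted p = 0.00977), and lost its call without adult library 1 or adolescent library 3 (edgeR adjusted p up to 0.0572). Cox4i1 was called without 2 of the 10 single libraries and Ndufa8 without 3, with edgeR adjusted p of up to 0.14 and 0.15. Cox4i1 shares 154 exon bases with Emc8 on the opposite strand. Called members numbered 10 without adult library 4 and 1 without adult library 3, so the count of 3 moves with both. The list summed to 6059, 6288, 5449, 6080 and 6084 CPM in adult libraries 1 to 5, against 6457, 6623, 6719, 6813 and 6672 CPM in adolescent libraries 1 to 5. All adult libraries lay below all adolescent ones, with adult library 3 the lowest.

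The mitochondrial genome's own protein-coding genes had values of the other sign. All 13 had positive log2 fold changes, with a median of 0.29, and none of the 13 was called. Their sum was 44471, 35541, 41934, 50593 and 36066 CPM in adult libraries 1 to 5, against 32524, 34330, 36250, 36200 and 34238 CPM in adolescent libraries 1 to 5. Adult libraries 2 and 5 lay among the adolescent ones and the other 3 above them. Without adult library 4, which was the highest, the median log2 fold change was 0.14. The corresponding median on water and saline was -0.07. Over all genes of that genome, transfer and ribosomal RNAs included, 23 were tested, 23 had positive log2 fold changes and 2 were called higher, the transfer RNA genes mt-Te and mt-Ty, named after their values were seen. Their log2 fold changes were 0.62 and 0.67 (edgeR adjusted p = 0.00867 and 0.0101), the ages overlapped for mt-Ty, and mt-Ty missed the threshold without adolescent library 4 (edgeR adjusted p = 0.0505). The 2 genes are 69 and 67 bases long. In libraries of polyadenylated RNA without a stated strand setting, reads of the transfer RNAs and of longer transcripts across them cannot be told apart. Cytosolic ribosomal protein genes, of which 67 were tested, had a median of -0.09, and none was called. The median was -0.15 without adult library 4, where 4 were called, and -0.04 without adult library 3, where 0 were.

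**Figure D3:**
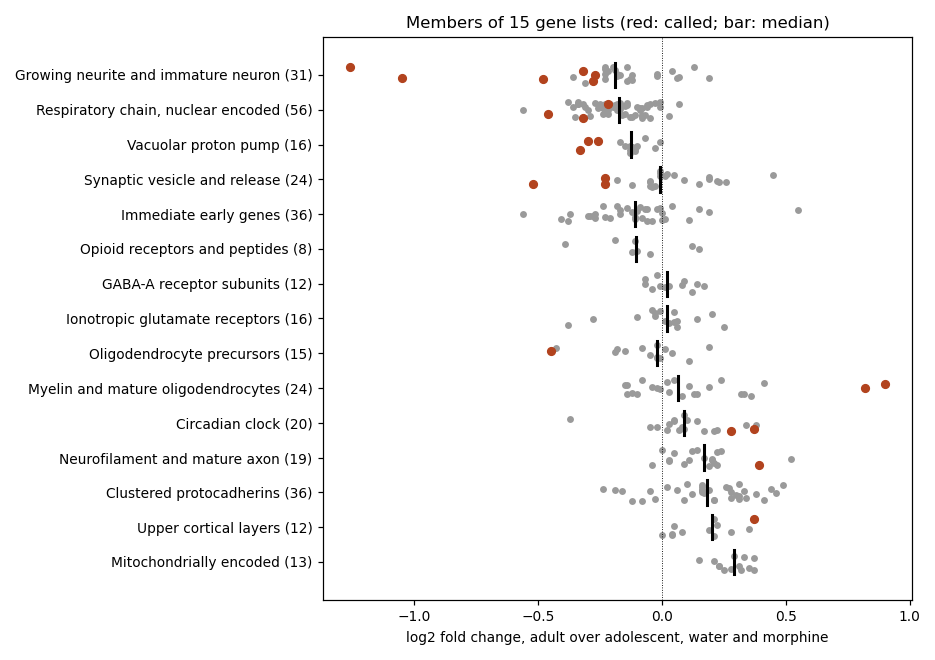
Log2 fold change of each tested member (points, called members larger and in red) of 15 gene lists, adult over adolescent on water and morphine, with the number of members in brackets and a bar at the median. Medians of the top 3 lists lie between -0.19 and -0.12 and that of the mitochondrially encoded proteins at 0.29.

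Beside these lists, metabolic carriers and small enzymes stood among the 15 lower genes with the smallest p. The fatty acid binding proteins Fabp5 and Fabp3, which carry lipids inside cells, both fell. Fabp5 gave 37.6, 47.6, 34.5, 41.3 and 39.1 CPM in adults, against 47.7, 58.3, 56.7, 52.9 and 54.8 CPM in adolescents. The groups were separate by a margin of under 1 CPM, at a log2 fold change of -0.43 ± 0.08 (SE; edgeR adjusted p = 0.00149). Fabp3 averaged 51.1 ± 5.7 CPM in adults and 64.5 ± 1.45 CPM in adolescents (SD, n = 5 each; edgeR adjusted p = 0.00446), and overlaps exons of Zcchc17 on the opposite strand by 81 bases. Hsbp1, which binds heat shock factor, had a log2 fold change of -0.38 (edgeR adjusted p = 0.00149). Cmpk1, a nucleoside monophosphate kinase, averaged 66.5 ± 1.59 CPM in adults and 81.4 ± 3.32 CPM in adolescents (SD, n = 5 each; edgeR adjusted p = 0.0088). The 15 also held Tceal5 and the pseudokinase Stradb, at log2 fold changes of -0.43 and -0.33. Adap1, a GTPase-activating protein for Arf enriched in neurons, fell in adults by 0.25 on the log2 scale (edgeR adjusted p = 0.00678).

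On the higher side, the gene with the smallest p was Il33, a nuclear cytokine that oligodendrocytes express in the mouse brain, listed here with myelin genes. It was read at 14.6, 12.3, 13.6, 16.1 and 17.6 CPM in adults, against 9.27, 6.42, 5.25, 8.97 and 9.78 CPM in adolescents. Every adult library lay above every adolescent one, at a log2 fold change of 0.90 ± 0.15 (SE) and a ratio of 1.87, with an edgeR adjusted p of 5.45e-04. Il33 also rose in adults on antibiotics and morphine, by 0.63 (edgeR adjusted p = 0.0216), while its log2 fold change of 0.28 on water and saline was not called (edgeR adjusted p = 0.531).

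Itpr1, the inositol trisphosphate receptor that releases calcium from internal stores, was the most abundant gene of the higher side that is named here. It gave 957, 920, 1174, 932 and 928 CPM in adults, against 775, 768, 781, 721 and 813 CPM in adolescents. Adult library 3 was the highest, and the other 4 adult libraries also lay above all adolescent ones. Its log2 fold change was 0.35 ± 0.06 (SE; edgeR adjusted p = 0.00173). Itpr1 shares exon bases with 2 counted genes on the opposite strand, Gm44040 and Gm44101, the second of which was itself called in the same direction.

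The 15 higher genes with the smallest p also held Sptb, Plec, Espn and Mast4. Sptb, the beta-I spectrin of the membrane skeleton, averaged 232 ± 20.7 CPM in adults and 184 ± 13.7 CPM in adolescents (SD, n = 5 each; edgeR adjusted p = 0.00173). Plec, the linker plectin, averaged 413 ± 22.1 CPM in adults and 319 ± 28.3 CPM in adolescents (SD, n = 5 each; edgeR adjusted p = 0.00412), and shares 205 exon bases with Parp10 on its own strand. Espn, an actin-bundling protein, was read at 13, 11, 8.31, 13.4 and 10.5 CPM in adults, against 6.93, 6.42, 5.78, 5.68 and 6.02 CPM in adolescents. Its groups did not overlap, and its log2 fold change of 0.86 ± 0.17 (SE; edgeR adjusted p = 0.00446) stood with that of Il33 among the steepest named here. The microtubule-associated kinase Mast4 averaged 75.2 ± 6.66 CPM in adults and 58.9 ± 6.1 CPM in adolescents (SD, n = 5 each; edgeR adjusted p = 0.00424), with 1 adult library inside the adolescent range.

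Signalling regulators followed. Rasgrf2, an exchange factor for Ras and Rac that marks upper cortical layers, averaged 268 ± 19 CPM in adults and 208 ± 18 CPM in adolescents (SD, n = 5 each; log2 fold change 0.37 ± 0.07 SE; edgeR adjusted p = 0.00633). It was the 1 call among 12 upper layer genes, 11 of which had positive log2 fold changes, with a median of 0.20, which was 0.15 without adult library 3. Sipa1l1, a Rap regulator at the postsynaptic density, averaged 573 ± 49.8 CPM in adults and 461 ± 13.8 CPM in adolescents (SD, n = 5 each; edgeR adjusted p = 0.00633). Rere, a transcriptional corepressor, differed by 0.26 on the log2 scale with narrow groups, 177 ± 4.32 CPM in adults and 147 ± 7.89 CPM in adolescents (SD, n = 5 each; edgeR adjusted p = 0.00683). The ankyrin repeat protein Ankhd1, the transporter family gene Slc35e2 and the zinc finger gene Znfx1 had log2 fold changes of 0.31, 0.34 and 0.32, and each shares exon bases with a counted neighbour. Znfx1 missed the threshold without adolescent library 3 (edgeR adjusted p = 0.0553). Ass1, an enzyme of arginine synthesis, rose by 0.47 (edgeR adjusted p = 0.00694), and was also called higher in adults on water and saline, by 0.75 (edgeR adjusted p = 2.42e-06), and on antibiotics and morphine, by 0.52 (edgeR adjusted p = 0.00188).

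Of 20 clock genes, 17 had positive log2 fold changes, with a median of 0.09, and the 2 called were the related repressors Bhlhe41 and Bhlhe40. Bhlhe41 was read at 53.7, 61.4, 56, 60.8 and 55 CPM in adults, against 45.4, 42, 47.6, 45.3 and 41.6 CPM in adolescents. The groups were separate, at a log2 fold change of 0.37 ± 0.08 (SE; edgeR adjusted p = 0.0105), and the call was lost by a narrow margin without adolescent library 2 (edgeR adjusted p = 0.0503). Bhlhe41 shares 1280 exon bases with Gm43909 on the opposite strand, which was counted at 21.2 CPM. Gm43909 was itself called higher in adults, at a log2 fold change of 0.46 (edgeR adjusted p = 0.0125), and lost its call without adult library 1 or adolescent library 1 or 3. Bhlhe40 had a log2 fold change of 0.28 and lost its call without 7 of the 10 libraries in turn, namely adult library 1, 2 or 5 and adolescent library 1, 2, 3 or 4, with an edgeR adjusted p of up to 0.213, and shares 118 exon bases with a counted gene on the opposite strand. The core clock gene Per2 averaged 66.7 ± 7.88 CPM in adults and 62.2 ± 10.7 CPM in adolescents, and the output gene Dbp 141 ± 17.7 CPM in adults and 134 ± 11.6 CPM in adolescents (SD, n = 5 each). Neither was called. Dbp shares 539 exon bases with Sphk2 on the opposite strand, which was counted at 77.2 CPM. The sources used here do not state the hour at which tissue was taken.

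Genes of morphine's targets and of the first-line response to it were not called between the ages in the main fit. None of the 8 tested opioid receptor and peptide genes was called. The mu receptor gene Oprm1 was low, at 3.64, 3.5, 6.35, 2.84 and 4.04 CPM in adults, against 5.51, 5.15, 4.62, 3.19 and 3.01 CPM in adolescents. The groups overlapped widely, at a log2 fold change of -0.10 ± 0.21 (SE; edgeR adjusted p = 0.893), and a difference of that size was not detectable at this depth. Oprm1 shares 96 exon bases with Ipcef1 on the opposite strand, which was counted at 97.4 CPM. Penk, the enkephalin precursor, averaged 30.8 ± 7.9 CPM in adults and 32.1 ± 4.12 CPM in adolescents, and Pdyn, the dynorphin precursor, 28.5 ± 2.83 CPM in adults and 30.7 ± 2.6 CPM in adolescents (SD, n = 5 each). The kappa receptor gene Oprk1 averaged 4.86 ± 1.63 CPM in adults and 4.31 ± 1.94 CPM in adolescents (SD, n = 5 each). Fkbp5, a target of the glucocorticoid receptor, averaged 26.9 ± 1.97 CPM in adults and 25 ± 2.62 CPM in adolescents (SD, n = 5 each) and was not called. Of 36 immediate early genes, which neurons switch on after activity, 29 had negative log2 fold changes, and none was called. Their median was -0.11, between -0.18 and -0.09 without single libraries. Without adult library 3, 2 of the 36 were called. Fos averaged 18.9 ± 5.29 CPM in adults and 25.2 ± 6.86 CPM in adolescents, and the growth factor Bdnf 33.3 ± 7.08 CPM in adults and 39.1 ± 4.22 CPM in adolescents (SD, n = 5 each; edgeR adjusted p = 0.437 for Fos and 0.285 for Bdnf).

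Receptor genes known for a switch of subunits during cortical maturation were likewise not called. Grin2a and Grin2b, the NMDA receptor subunits of the mature and the young synapse, had log2 fold changes of 0.20 and 0.25. Without adult library 3 these were 0.13 and 0.11, and with an offset for transcript length and GC content 0.07 and 0.08. None of the 12 GABA-A and none of the 16 ionotropic glutamate receptor genes was called in the main fit. With that offset 1 ionotropic glutamate receptor gene was called, and without adult library 3 also 1. Among interneuron genes, Pvalb averaged 27.1 ± 4.24 CPM in adults and 24.3 ± 3.76 CPM in adolescents, and the peptide gene Sst 171 ± 33 CPM in adults and 209 ± 15.7 CPM in adolescents (SD, n = 5 each; edgeR adjusted p = 0.762 for Pvalb and 0.166 for Sst). Of the 36 clustered protocadherin genes, which give neurons their surface identity, 29 had positive log2 fold changes, with a median of 0.18, and none was called. In all, 28 of the 40 lists held no called gene, and 24 of the 812 distinct genes on the lists were called, or 2.96%, against 0.928% of all genes tested. The lists were chosen with results of these data known, so nothing is read from that share.

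The called lists not yet described were short. Gpr17, a receptor of oligodendrocyte precursors on the way to differentiation, was the 1 call of 15 precursor genes. It gave 49, 42.8, 51.7, 67.3 and 41.8 CPM in adults, against 67.1, 67.3, 65.3, 73.4 and 71.4 CPM in adolescents. Adult library 4 lay among the adolescent ones and the other adult libraries below them. The fit gave a log2 fold change of -0.45 ± 0.11 (SE; edgeR adjusted p = 0.0378). The call was held without adult library 4 and lost without each of the other 9 libraries in turn, with an edgeR adjusted p of up to 0.109. Gpr17 shares 188 exon bases with Lims2 on the opposite strand. It fell in adults on water and saline too, by 0.75 (edgeR adjusted p = 3.86e-04), and on antibiotics and morphine, by 0.59 (edgeR adjusted p = 0.00557). Among 15 imprinted growth genes, Cdkn1c, an inhibitor of the cell cycle, and Ndn, necdin of postmitotic neurons, were called lower in adults, at log2 fold changes of -0.54 and -0.38. Cdkn1c lost its call without adult library 3, 4 or 5 or adolescent library 2, 3 or 4 (edgeR adjusted p up to 0.11) and shares 625 exon bases with Gm44732 on the opposite strand, and Ndn lost its call without adult library 1, 4 or 5 or adolescent library 2 or 3 (edgeR adjusted p up to 0.086).

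For myelin genes the age difference on water and morphine and that on water and saline were apart in value. No single gene passed edgeR's test of that change in the main fit. On water and morphine the 24 tested myelin genes had a median log2 fold change of 0.07, or 0.14 without adult library 3 and 0.01 without adult library 4, with 2 called higher in adults, Il33 and Anln. Their sum was 1869, 1784, 1510, 2024 and 1971 CPM in adult libraries 1 to 5, against 1788, 1627, 1759, 1826 and 1948 CPM in adolescent libraries 1 to 5, so the ages overlapped fully. On water and saline it was 1314, 1373, 1481, 1431 and 1376 CPM in adults, against 1520, 2136, 1786, 2694 and 1966 CPM in adolescents. There all adult libraries lay below all adolescent ones, the median log2 fold change was -0.46, and 5 myelin genes were called lower in adults, among them Cldn11, Mal, Fa2h and Tspan2, beside 46 calls among all genes (0.257%), of which 14 were higher (0.0783%) and 32 lower (0.179%). Without single libraries those 46 calls ranged from 22 to 95. Adolescent library 5 of water and saline had a limma-voom weight of 0.358, the lowest of the 40 libraries, and 29 genes were called without it. On antibiotics and morphine the median was -0.24, with Il33 called higher and Tspan2 lower, where 0.414% of all genes were called higher and 0.626% lower.

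The test of the change itself, the age difference on water and morphine minus that on water and saline, called none of the 17880 genes with edgeR, while 1788 passed an unadjusted p under 0.05, or 10%. DESeq2, which adjusted p over 3612 genes here, called 42, and limma-voom called 0 of the 17880. Among the 24 myelin genes, 16 had an unadjusted p under 0.05 in this test. The median difference was 0.53, between 0.39 and 0.61 without each library in turn. The myelin calls on water and saline enter this difference, and these genes share the same libraries. Nothing further is read from the count of 16. Mbp, myelin basic protein, averaged 649 ± 91.5 CPM in adults and 615 ± 54.2 CPM in adolescents on water and morphine (SD, n = 5 each; log2 fold change 0.08), and had a log2 fold change of -0.55 on water and saline. Its difference of 0.63 had an edgeR adjusted p of 0.349. Markers of other glia moved with these groups: the summed oligodendrocyte precursor markers were 591, 614, 683, 606 and 552 CPM in adults on water and saline, against 642, 726, 630, 811 and 936 CPM in adolescents, and the astrocyte sum reached 12239 CPM in adolescent library 5 of water and saline, against at most 9884 CPM in adults of that treatment. The part of these shifts in the myelin result was not tested.

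**Figure D4:**
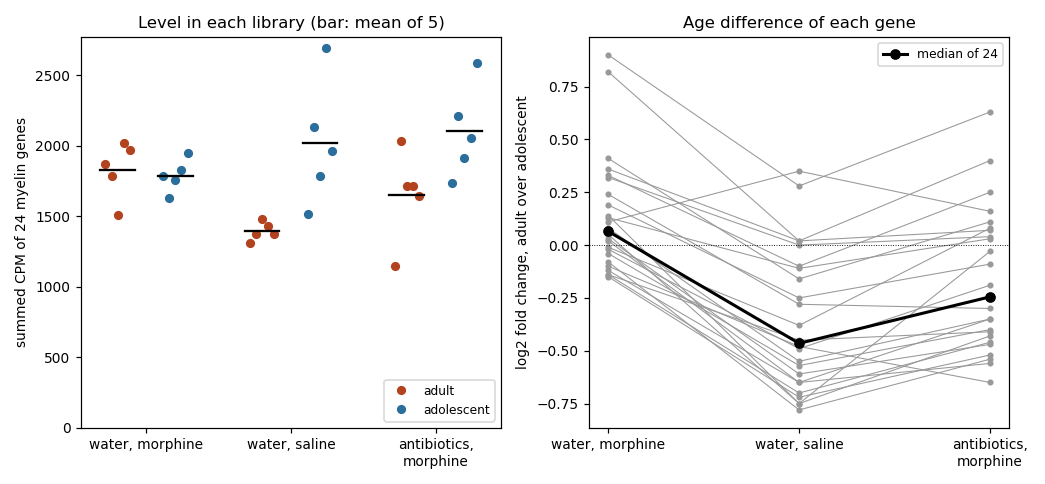
Left, summed CPM of 24 myelin genes in each library, with adults left of adolescents in each of 3 treatments and a bar at the mean of 5. Right, log2 fold change of each of the 24 genes (adult over adolescent) in the same treatments, with the median in black at 0.07, -0.46 and -0.24.

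Anln, an actin-binding scaffold that myelinating cells express, gave 9.42, 5.64, 9.23, 6.64 and 6.23 CPM in adults, against 3.59, 4.16, 5.46, 3.59 and 4.3 CPM in adolescents. The groups were separate, with a log2 fold change of 0.82 ± 0.22 (SE; edgeR adjusted p = 0.047). The call was held without adult library 2 or 4 and lost without each of the other 8 libraries, with an edgeR adjusted p of up to 0.153.

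Other genes with the smallest p in edgeR's test of that change are described by their values, since none passed its adjusted threshold in the main fit. Atp6v0c had a log2 fold change of -0.33 on water and morphine and 0.07 on water and saline (difference -0.40; edgeR adjusted p = 0.175), and Cdkn1c -0.54 on water and morphine and 0.30 on water and saline (difference -0.85; edgeR adjusted p = 0.201). In the other direction, the potassium channel subunit gene Kcng4 had 0.22 on water and morphine and -1.29 on water and saline (difference 1.51; edgeR adjusted p = 0.191). Acsl6, a fatty acyl-CoA synthetase of neurons, had 0.12 on water and morphine and -0.21 on water and saline (difference 0.33; edgeR adjusted p = 0.201), and Fnbp1, a membrane-curving protein, 0.29 on water and morphine and -0.09 on water and saline (difference 0.37; edgeR adjusted p = 0.201). The call of Fnbp1 on water and morphine was lost without adult library 1 or 5 or adolescent library 2 or 3, with an edgeR adjusted p of up to 0.0869. Of the 16 proton pump genes, 10 had an unadjusted p under 0.05 in this test, against 1788 of all 17880 genes (10%), and the median difference was -0.18. The pump's calls on water and morphine enter this difference, so nothing further is read from that count.

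The 166 calls were also set beside the age difference in the other treatments, which use other libraries. Of the 166 genes, 156 had the same sign on antibiotics and morphine (94%, against 62.2% of all genes tested), and 35 were called there in the same direction. On water and saline, 130 had the same sign (78.3%, against 53% of all genes tested), and 11 were called in the same direction. Neither comparison called any of the 166 in the opposite direction. The log2 fold change was smaller in size for 146 of the 166 on antibiotics and morphine and for 158 on water and saline. Over all 17880 genes it was smaller for 8779 and 9481. The 166 were picked by their values on water and morphine, so smaller values elsewhere are not read as an effect of treatment. Calls over all genes were 186 on antibiotics and morphine (1.04%) and 46 on water and saline (0.257%). The 9 genes called in the same direction in all 3 were Marcksl1, Adap1, Gpr17, Clec2l and Selenow, lower in adults, and Itpr1, Ass1, Gm44101 and Hsf4, higher in adults, of which Clec2l, Selenow, Gm44101 and Hsf4 were chosen for mention after their values were seen. Selenow was called without adult library 4 or adolescent library 1 and lost without each of the other 8 libraries, with an edgeR adjusted p of up to 0.154. Hsf4 was lost without adult library 2 or 5 or adolescent library 3, and Gm44101 without adult library 3 or adolescent library 2 or 4, with edgeR adjusted p of up to 0.0974 and 0.109. Across the 17880 genes, Pearson's r between log2 fold changes was 0.23 with antibiotics and morphine and 0.06 with water and saline, as a description across genes, which are not independent and share the fit.

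The age difference under morphine differed between water and antibiotics at 1 gene, 0.00559% of those tested. Plcd3, a phospholipase C of the delta class, was read at 20.3, 18, 18.2, 20.4 and 16 CPM in adults on water and morphine, against 12.6, 12, 12.5, 15.7 and 12.5 CPM in adolescents on water and morphine. The groups were close but separate, at a log2 fold change of 0.51 ± 0.11 (SE; edgeR adjusted p = 0.00916). On antibiotics and morphine the log2 fold change was -0.28 (edgeR adjusted p = 0.166), and the difference of 0.79 had an edgeR adjusted p of 0.0447. Plcd3 was still called in this test without adult library 5 or adolescent library 4 on water and morphine or without adolescent library 5 on antibiotics and morphine, and 0 genes were called without each other library in turn.

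Called genes of the 2 directions differed in transcript length. The longest annotated transcript had a median of 5771 bases among genes higher in adults and of 1723 bases among genes lower in adults, against 3101 bases over all genes tested. Over 5000 bases were 56.3% of the higher and 4.26% of the lower genes, against 20.1% of all. Among all genes with at least 1 CPM, the median log2 fold change on water and morphine was -0.028 under 1000 bases, -0.058 at 1000 to 2000 bases and 0.099 at 7000 bases and over. On antibiotics and morphine the same 3 bins gave -0.05, -0.049 and 0.098, and on water and saline -0.017, -0.016 and 0.022. The libraries differed in this measure within a group: the median deviation of genes over 5000 bases minus that of genes under 1000 bases was 0.323 on the log2 scale in adult library 3, between -0.069 and 0.104 in the other adult libraries, and between -0.097 and 0.037 in adolescents. Without adult library 3 the 3 bins on water and morphine gave -0.016, -0.038 and 0.053. In that fit the 48 genes called higher in adults had a median length of 5432 bases and the 63 called lower one of 2843 bases.

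**Figure D5:**
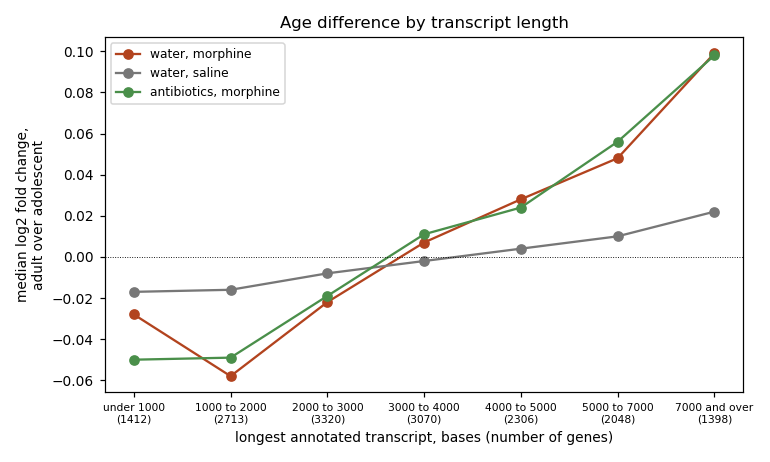
Median log2 fold change, adult over adolescent, of all genes averaging 1 CPM or more, grouped by the length of the longest annotated transcript (number of genes in brackets), for 3 treatments. The line of water and morphine and that of antibiotics and morphine reach 0.099 and 0.098 in the longest group, and that of water and saline 0.022.

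With an offset for transcript length and GC content in the model, 149 genes were called, 55 higher in adults and 94 lower, of which 112 were among the 166. Marcksl1, Tubb2a, Cd24a, Atp6v0c, Il33, Itpr1, Sptb, Plec and Espn stayed called, with Marcksl1 at an edgeR adjusted p of 2.68e-11. Of the genes named above, Basp1, Anln, Bhlhe40, Cdkn1c, Ndufa8, Cox4i1 and Fnbp1 missed the threshold in that fit. List medians in that fit were -0.20 for the growing neurite, -0.14 for the proton pump and -0.16 for the respiratory chain, against -0.19, -0.12 and -0.17 without the offset. They were 0.12 for the mature axon, 0.13 for the upper layers, 0.15 for the protocadherins and 0.24 for the mitochondrially encoded proteins, against 0.17, 0.20, 0.18 and 0.29.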

How the data were processed

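The values are whole-number read counts for 56980 mouse gene IDs, as the authors deposited them for all samples at once. Per the labels' protocols, a spin-column kit gave the RNA and a rapid RNA-seq kit the libraries. The submitters' processing notes name STAR 2.7.10a, DESeq2 and the build mm10 without saying what each did, and the sources used here name neither the annotation nor the strand setting. Symbols were found for 52073 IDs (91.4%), and 17 of the 46 called genes named by rule overlap exons of another tested gene.

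All 40 libraries in 8 groups were fitted together with edgeR 4.0.16 in R 4.3.3. Genes were kept by filterByExpr with minimum counts of 10 per library and 15 in total. The 17880 genes kept held 99.75 to 99.82% of counts. Libraries were scaled by TMM, the quasi-likelihood fit was robust with 1 coefficient per group, and tests were two-sided with Benjamini-Hochberg adjustment over the 17880 genes and a threshold of 0.05. SE is that of the log2 fold change. The common biological coefficient of variation was 9.14%, and floors cover counting error only. The code was tested on simulated counts.

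The age difference was tested on water and morphine, on water and saline and on antibiotics and morphine, and the first was set against each of the others as a difference of differences. Alternatives were RLE scaling, no filter, a filter of 1 CPM in 5 libraries, only the compared groups, a replicate block, leaving out each library, limma-voom with weights per sample (limma 3.58.1) and DESeq2 1.42.0. An offset for transcript length and GC content, from the longest GENCODE M21 transcript, was chosen after seeing the data.

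Genes named were the 15 higher and 15 lower calls with the smallest p and an average of 1 CPM or more, up to 4 called members of each of 40 gene lists, fixed maturation, opioid, activity and clock genes, and the extremes of the difference tests. The lists and the genes were chosen with earlier results of these data known. List members named beside them were picked for their roles. A few genes that met the rule are not reported here. Promoters came from RefSeq's table.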

Additional observations from a re-analysis of the deposited data

Results flagged for a closer look

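Among 120 groups of 5 libraries of 60 genes named by rule, 3 held a library far from the other 4 by Dixon's criterion of 0.71, where chance alone gives about 1 in 20 groups. Itpr1 was 1174 CPM in adult library 3, against 920 to 957 CPM in the other adult libraries. Per2 was 44 CPM in adolescent library 3, against 64.7 to 72.5 CPM in the other adolescents. Plcd3 was 15.7 CPM in adolescent library 4, against 12 to 12.6 CPM in the other adolescents. Itpr1 and Plcd3 were called without each of the 10 libraries in turn.

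The age difference of Plcd3 under morphine was 0.79 higher on the log2 scale on water than on antibiotics, the 1 gene at which edgeR's test of that difference passed its threshold (adjusted p = 0.0447).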

How the results depend on the processing

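The 166 calls on water and morphine became 173 with RLE scaling, 167 with at least 1 CPM in 5 libraries, 310 with no filter, 377 with DESeq2, 380 with limma-voom, 151 with only the compared groups and 149 with the length and GC offset, and 63 to 328 without single libraries. No called gene changed direction in any of these fits. DESeq2 adjusted p over 11236 genes and the fit with no filter over 40209, so these counts are not over the same genes. Of the 46 called genes named by rule, 29 were called without each library in turn. The fit of only the compared groups lost 7: Znfx1, Stx1a, Bhlhe40, Atp6v0b, Atp6v1f, Ndufa8 and Cox4i1.

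On water and saline, 46 calls became 139 with no filter, 104 with DESeq2, 19 with only the compared groups and 22 to 95 without single libraries. On antibiotics and morphine, 186 became 321 with no filter, 436 with DESeq2, 739 with limma-voom, 115 with the offset and 61 to 536 without single libraries. The change of the age difference with morphine on water, at 0 calls by edgeR, gave 55 with no filter, 42 with DESeq2, 1 with only the compared groups and 0 to 8 without single libraries, where the 8 came without adolescent library 1 of water and saline. Its change with antibiotics, at 1 call, gave 4 with no filter, 0 with only the compared groups, 0 with the offset and 0 to 1 without single libraries. DESeq2 adjusted p over 14286 genes on water and saline, 13524 on antibiotics and morphine and 3612 for the change with morphine. Fits with no filter adjusted over 40209. The cause of the moves between settings was not tested.

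The replicate block gave 191 calls on water and morphine, 159 of them among the 166, 52 on water and saline, 178 on antibiotics and morphine and 0 for both changes of the age difference, and lost the call of Anln. The block was fitted within each age, so it did not pair adult with adolescent libraries. Same-numbered adult and adolescent libraries correlated at 0.1, -0.11, 0.02, 0.37 and 0.02, and 2 of 5 correlated best with their own number. Within each age, 1 of 5 did so between water and morphine and water and saline. Such correlations cannot settle whether same-numbered libraries shared a batch or handling, and the labels give only the number.

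A few uncalled values near 0 changed sign. Sox11 was -0.07 with limma-voom, -0.04 with the offset and -0.05 to 0.09 without single libraries. Over the same omissions Oprm1 ran from -0.31 to 0.00, Oprk1 from -0.06 to 0.32, Penk from -0.16 to 0.08 and Per2 from -0.01 to 0.15. With 3 counts at 0.248 to 0.324 CPM on unadjusted totals and 5 libraries an age, small differences of genes at a few CPM, such as Oprm1, were not detectable.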
